A study of Homo sapiens with 27 samples.

Results

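The potassium channel genes were the 95 protein-coding genes, of 19578 protein-coding genes and 60619 genes in all in the count table, whose symbol consists of KCN, further letters and a number. They code for the pore-forming subunits and most of the accessory subunits of potassium channels. The family was selected on the fall of 1 of them, KCNC2, in the CPM and fold change between MM134 LTED and parental cells, so KCNC2 is described in that comparison without a test. The other members entered by their symbol and not by their values. RNA-Seq was carried out on MM134 and SUM44, human cell lines of invasive lobular carcinoma that express the estrogen receptor, with 3 wells for each of 9 groups. The long-term estrogen-deprived (LTED) variants, A, B, D and E of MM134 and A and B of SUM44, are sublines that grow without estrogen and were selected from the parental cells by lasting culture in stripped serum. Parental MM134, SUM44F (the parental culture of the SUM44 LTED cells) and SUM44PE, from which SUM44F was derived, had been kept without hormone for 3 days before collection. The wells of a group were seeded from the same line, so p-values measure only the spread between wells.

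Potassium channels let potassium ions leave or enter the cell and set the resting membrane potential. The voltage-gated (Kv) subfamilies open upon depolarization, the calcium-activated ones (BK, SK and IK) respond to intracellular calcium, the inward rectifiers (Kir) pass inward current more easily than outward current, and the two-pore-domain (K2P) channels carry background leak. Best known from nerve, heart and muscle, many of them are also expressed in epithelia, where they take part in secretion, volume regulation and the cell cycle.

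The summed estimated counts were 28583554 to 134882175 per library, and the members together took 0.0389% to 0.0790% of a library. Levels are given as CPM, counts scaled by library size with 1 normalization over all libraries. In SUM44 LTED-A, the difference between replicates 2 and 3 was below the sampling noise, and they were counted as 1 sample, which leaves n = 2 for this variant. The luminal markers ESR1, GATA3, FOXA1, KRT8, KRT18 and KRT19 were at 77.1 CPM or more in every library, and PGR was below 1 CPM in every LTED variant. Fibroblast markers stood apart in 1 library: COL1A1, COL1A2, COL3A1, PDGFRB, DCN and LUM summed to 360.9 CPM in SUM44F replicate 1 and to 9.47 and 8.39 CPM in the other SUM44F libraries. The sum was also highest of its group in MM134 parental replicate 3 (35.9 CPM, against 20.9 and 23.5) and LTED-D replicate 2 (27.7 CPM, against 12.6 and 12.4). A gene was called differentially expressed (DE) at a fold change above 1.5 and an adjusted p below 0.001 in edgeR's quasi-likelihood test over all genes of the fit. Of the 95 members, 70 passed the filter on low counts in at least 1 fit. The other 25 reached at most 0.244 CPM in any library, 9 of them never had more than 3 counts, and 1, KCNK18, had none. Levels are compared between genes only per kilobase, except as parts of a summed CPM. As these are bulk samples, fewer cells that express a gene and less RNA per cell cannot be told apart.

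The first 250 bases upstream of the annotated start of 5 members that the results turn on are shown here because they differ widely in base composition. Sequences are from RefSeq on GRCh38.p14 (71 of the 95 members matched), written 5′ to 3′ on the strand of the gene and ending at the base before the RefSeq start, which need not be the start used in these cells, with GC boxes (GGGCGG or, on the other strand, CCGCCC) and the TATA box (TATAAA) in capitals. The windows are chr11:17734531-17734780 (plus strand) for KCNC1, chr12:75209840-75210089 (minus) for KCNC2, chr2:26692472-26692721 (plus) for KCNK3, chr2:154698445-154698694 (plus) for KCNJ3 and chr2:232776566-232776815 (minus) for KCNJ13.
KCNC1: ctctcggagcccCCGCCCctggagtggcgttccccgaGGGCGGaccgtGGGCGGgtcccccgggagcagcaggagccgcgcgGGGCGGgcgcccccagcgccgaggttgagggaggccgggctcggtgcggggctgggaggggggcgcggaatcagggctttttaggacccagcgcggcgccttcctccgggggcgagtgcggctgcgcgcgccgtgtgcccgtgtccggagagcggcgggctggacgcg
KCNC2: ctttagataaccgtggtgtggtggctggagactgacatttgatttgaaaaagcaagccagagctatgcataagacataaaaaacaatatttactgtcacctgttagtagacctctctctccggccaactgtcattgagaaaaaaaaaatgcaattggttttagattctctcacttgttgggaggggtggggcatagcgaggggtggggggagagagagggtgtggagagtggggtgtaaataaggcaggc
KCNK3: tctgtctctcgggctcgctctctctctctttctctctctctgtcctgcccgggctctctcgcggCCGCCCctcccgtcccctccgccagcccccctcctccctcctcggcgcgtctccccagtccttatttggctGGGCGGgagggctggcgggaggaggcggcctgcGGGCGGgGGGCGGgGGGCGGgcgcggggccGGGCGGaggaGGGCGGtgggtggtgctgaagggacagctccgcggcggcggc
KCNJ3: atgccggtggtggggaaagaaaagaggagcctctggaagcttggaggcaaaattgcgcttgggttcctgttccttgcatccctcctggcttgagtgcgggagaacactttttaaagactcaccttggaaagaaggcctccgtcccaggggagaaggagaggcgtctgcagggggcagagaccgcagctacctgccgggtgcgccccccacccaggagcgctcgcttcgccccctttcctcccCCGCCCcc
KCNJ13: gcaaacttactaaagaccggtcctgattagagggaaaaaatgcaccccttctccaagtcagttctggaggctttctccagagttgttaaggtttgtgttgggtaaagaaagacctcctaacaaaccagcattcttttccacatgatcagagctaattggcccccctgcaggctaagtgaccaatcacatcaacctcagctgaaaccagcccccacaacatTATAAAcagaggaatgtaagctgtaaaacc
KCNC1 and KCNK3, with 79.2% and 76.4% G and C, hold 4 and 7 GC boxes. KCNC2, with 46.0% G and C, holds neither motif. KCNJ13, with 45.2%, holds the TATA box, whose first base lies at -30 from the start. GC boxes were found, on either strand, in 48.6% of 109 windows upstream of annotated starts of members and in 42.6% of 35116 such windows in all, and TATAAA in 8.26% and 10.7%. The palindromic estrogen response element, GGTCA and TGACC separated by any 3 bases, was in 0 of the 109 windows and in 0.0399% of all. These letters describe the windows and say nothing on binding in these cells.

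Parental MM134 and SUM44F cells expressed different channels. In parental MM134 cells the members with the highest CPM per kilobase of exon were KCNJ11 (10.3 ± 0.42, SD, n = 3), KCNK5 (5.88 ± 0.21), KCNC2 (5.44 ± 0.12), KCNS3 (4.57 ± 0.12) and KCNK1 (4.49 ± 0.34), followed by KCNK6 (4.38 ± 0.20). The last 3 of these did not differ beyond their spread. In SUM44F they were KCNS3 (56.0 ± 4.6), KCNJ3 (20.4 ± 0.94), KCNN4 (6.48 ± 0.65), KCNJ11 (6.24 ± 0.77) and KCNE4 (5.46 ± 0.44). KCNS3 thus stood first in SUM44F and behind other members in parental MM134. KCNS3 codes for a silent Kv subunit that forms no channel alone and modifies other Kv channels. KCNJ11 codes for the pore of the ATP-sensitive potassium channel, KCNJ3 for a G protein-gated inward rectifier (GIRK1), KCNMA1 for the BK pore, KCNN4 for the IK channel, and KCNK1, KCNK5 and KCNK6 for K2P channels. The ranking depended on the length used. With the longest transcript in place of all exons, KCNMA1 was second in parental MM134 (11.6 per kilobase) and KCNK5 fell to the sixth place (5.88), and KCNK1 took the fifth place from KCNE4 in SUM44F (8.65). Over parental and LTED libraries together, KCNS3 had the highest mean in MM134 as well (10.4 per kilobase of exon, against 7.14 for KCNJ11).

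Between parental MM134 and SUM44F, 21 of the 69 members other than KCNC2 tested in the fit of both lines were DE and higher in MM134 (18.9% of all genes tested were), and 16 were DE and higher in SUM44F (19.2% of all genes). Nothing is read from these shares, since the parental MM134 libraries took part in the choice of the family. The Kv3 gene KCNC1, the ERG channel genes KCNH2, KCNH6 and KCNH7, and KCNQ3, a subunit of the M-current, were higher in MM134. KCNH7 stood at 20.1, 19.7 and 20.1 CPM in MM134 and at 0.0434, 0.117 and 0.0111 CPM in SUM44F. KCNJ3 stood the other way, at 1.34, 1.27 and 2.33 CPM in MM134 and 94.5, 102 and 103 CPM in SUM44F, a log2 difference of -5.96 ± 0.13 (SE, adjusted p = 1.35e-20). KCNS3 was 12.4-fold lower and KCNJ13 (Kir7.1) 7.28-fold lower in MM134 than in SUM44F.

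The summed level of all members was 547 to 564 CPM in the 3 parental MM134 libraries and 393 to 439 CPM in the 12 LTED libraries, which did not overlap. Without KCNC2 the parental libraries summed to 513 to 529 CPM, also above all LTED libraries. In SUM44 it was 547 to 590 CPM in SUM44F and 457 to 469 CPM in the LTED libraries, and 757 to 780 CPM in SUM44PE. In MM134 LTED-A, the members that lost most CPM were KCNC2 (-34.9), KCNK3 (-22.9), KCNC1 (-20.2), KCNJ11 (-20.0) and KCNH7 (-19.3), and KCNS3 gained most (39.3). In SUM44 LTED-A, the differences were -84.7 CPM for KCNJ3 and -55.3 CPM for KCNS3, whereas KCNMA1 gained 30.1 CPM. Such differences are parts of the summed CPM, in which longer transcripts weigh more, and do not rank the members by expression.

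**Figure D1:**
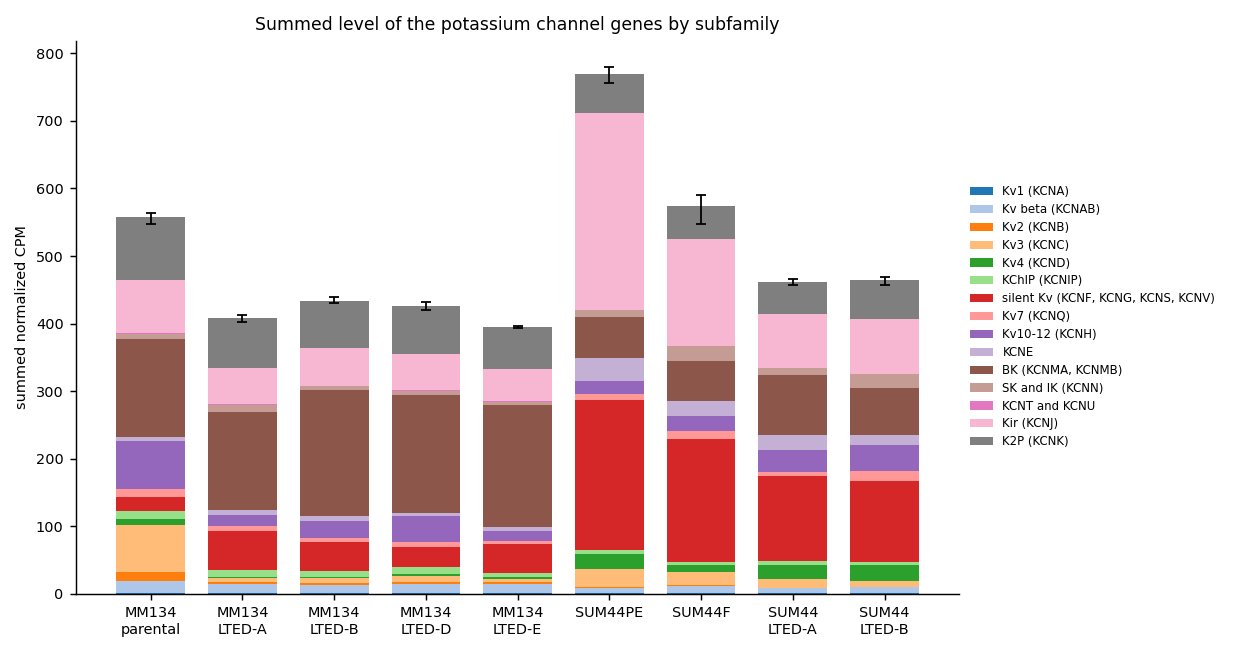
Summed normalized CPM of the 95 potassium channel genes in each of the 9 groups (y axis), stacked by subfamily, where error bars run from the lowest to the highest library of the total. In MM134 the Kv3 segment, which holds KCNC2, and the Kv10-12 segment are smaller in all 4 LTED variants than in parental cells, and in SUM44 the Kir segment is smaller in both LTED variants than in SUM44F, with the largest Kir segment in SUM44PE.

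In MM134, the Kv3 genes KCNC1, KCNC2 and KCNC4, the Kv4 gene KCND3, the ERG genes KCNH2 and KCNH7 and the K2P gene KCNK3 were lower in each LTED variant than in parental cells, and KCNS3 was higher. Of the 62 members tested in MM134, KCNC2 is left out of the counts. Among the other 61, 18, 18, 17 and 20 were DE and lower in variants A, B, D and E, against 9.82%, 7.75%, 7.95% and 10.3% of all 26061 genes tested. There were 5, 3, 7 and 3 members DE and higher, against 10.5%, 8.11%, 9.63% and 8.71% of all genes. In at least 3 of the 4 variants, 17 members were lower (6.83% of all genes) and 2 were higher, KCNS3 and KCNN2 (6.66% of all genes). In all 4 variants 13 members were lower (4.44% of all genes) and 1, KCNS3, was higher (4.08%). Nothing is read from these shares, since the family was taken up after the fall of KCNC2 in the same comparisons. Of the members lower in at least 3 variants, KCNK15 and KCNQ5 passed the filter on low counts only through the parental libraries and so had to differ. KCNN2 passed it only through LTED-A, B and D, the variants in which it was called higher. The 4 variants share the parental libraries, and their values are therefore given side by side.

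**Figure D2:**
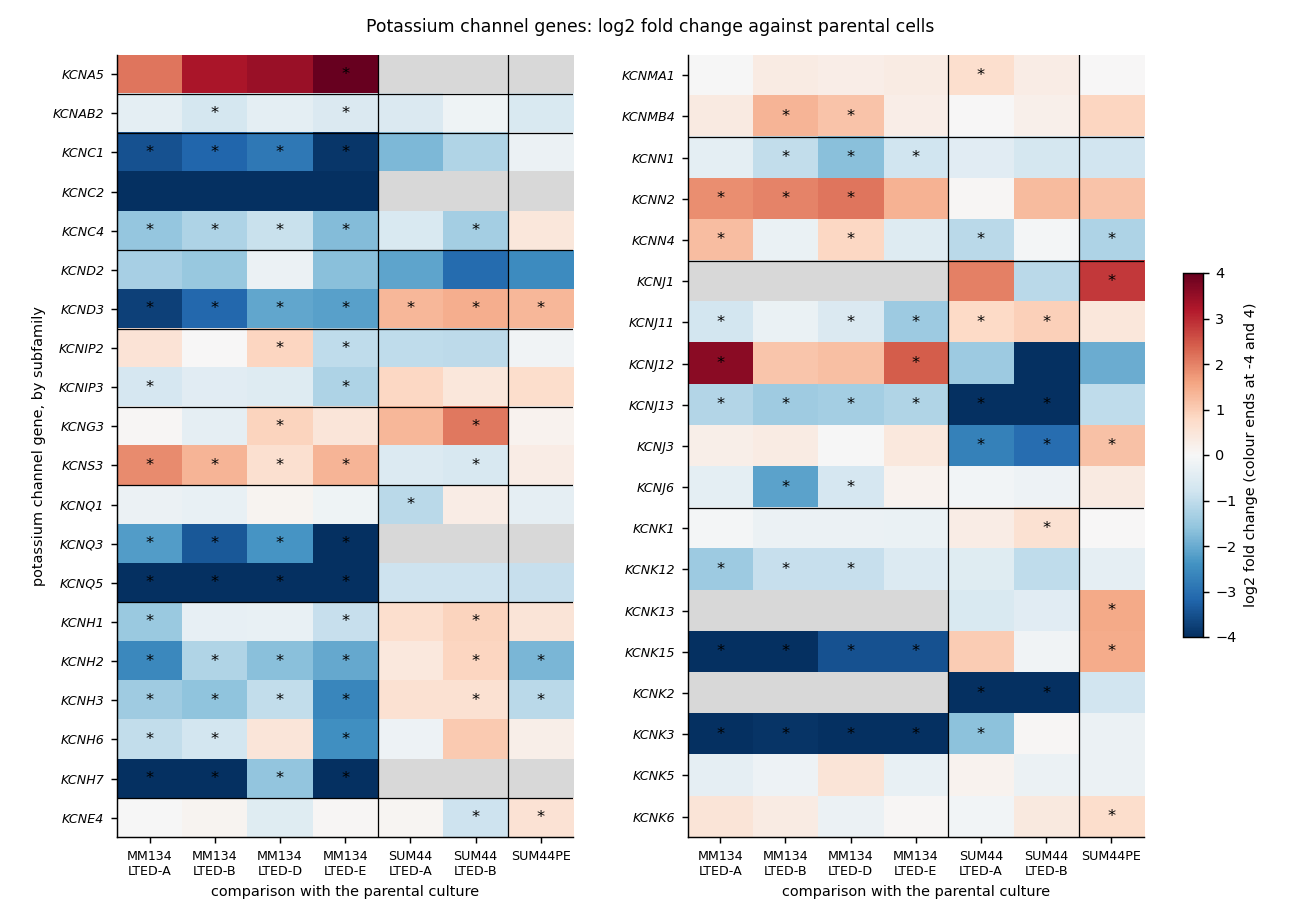
Log2 fold change of the members named in the text (rows, by subfamily) in 7 comparisons with parental cells (columns), where red is higher and blue lower, an asterisk marks a DE gene (not shown for KCNC2, which is described without a test) and grey a gene not tested. KCNC1 and KCNC4 are blue with an asterisk in all 4 MM134 variants, and KCNJ3, KCNJ13 and KCNK2 in both SUM44 variants. Colours of KCNA5 and KCNQ5 in MM134, and of KCNK15 in MM134 LTED-B, depend on the small count the fit adds. In these comparisons 1 side held 3 counts or fewer per library.

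Kv3 channels open at strongly depolarized potentials and close quickly, which allows nerve cells to fire at high frequency. KCNC2 (ENSG00000166006, chr12:75040077-75209839, minus strand of hg38) was at 35.9, 34.6 and 34.6 CPM in parental MM134 cells. It was at 0.0802, 0.167 and 0.149 CPM in LTED-A, 0.510, 0.307 and 0.423 in LTED-B, 0.645, 0.365 and 0.395 in LTED-D, and 0.0741, 0.0635 and 0.117 in LTED-E. All 12 LTED libraries thus lay far below the parental ones, with fitted log2 fold changes of -8.15, -6.39, -6.24 and -8.61. An antisense RNA, ENSG00000257434, covers 35.7% of the exon bases of KCNC2 at a mean of 0.317 CPM over all libraries. In SUM44, KCNC2 was too low to be tested, with at most 0.253 CPM in any library of that line.

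KCNC1 (Kv3.1, chr11:17734774-17856804, plus strand) was at 22.5, 23.8 and 20.2 CPM in parental MM134 cells. In the LTED libraries it was at 1.78, 1.80 and 2.36 CPM (A), 2.34, 2.71 and 2.36 (B), 3.03, 2.78 and 3.20 (D) and between 1.35 and 1.58 (E). The groups did not overlap, and KCNC1 was 11.3-, 8.92-, 7.29- and 14.9-fold lower, with log2 fold changes of -3.50 ± 0.10, -3.16 ± 0.10, -2.87 ± 0.10 and -3.90 ± 0.11 (SE, edgeR adjusted p = 4.54e-14 or lower). KCNC4 (Kv3.4) fell from 9.78, 10.5 and 10.6 CPM to 3.50, 3.38 and 3.59 in LTED-A and 2.96, 3.15 and 2.93 in LTED-E, and less, to 6.29, 5.19 and 4.95, in LTED-D.

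KCND3 (Kv4.3), which carries transient A-type current, went from 7.97, 6.98 and 6.54 CPM to 0.551, 0.390 and 0.688 in LTED-A, 0.765, 0.968 and 0.671 in LTED-B, 1.58, 1.71 and 1.70 in LTED-D and 1.95, 1.63 and 1.22 in LTED-E. It was 13.2-, 8.88-, 4.26- and 4.48-fold lower, and the variants differed from each other by up to 1.63 on the log2 scale (adjusted p = 1.54e-06). Its partner subunits of the KChIP group, calcium sensors that bind Kv4 channels, moved less evenly. KCNIP3 was DE and lower in LTED-A and LTED-E, the former not without parental replicate 1 (log2 -0.57), while KCNIP2 was 1.82-fold higher in LTED-D and 2.01-fold lower in LTED-E, both DE.

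**Figure D3:**
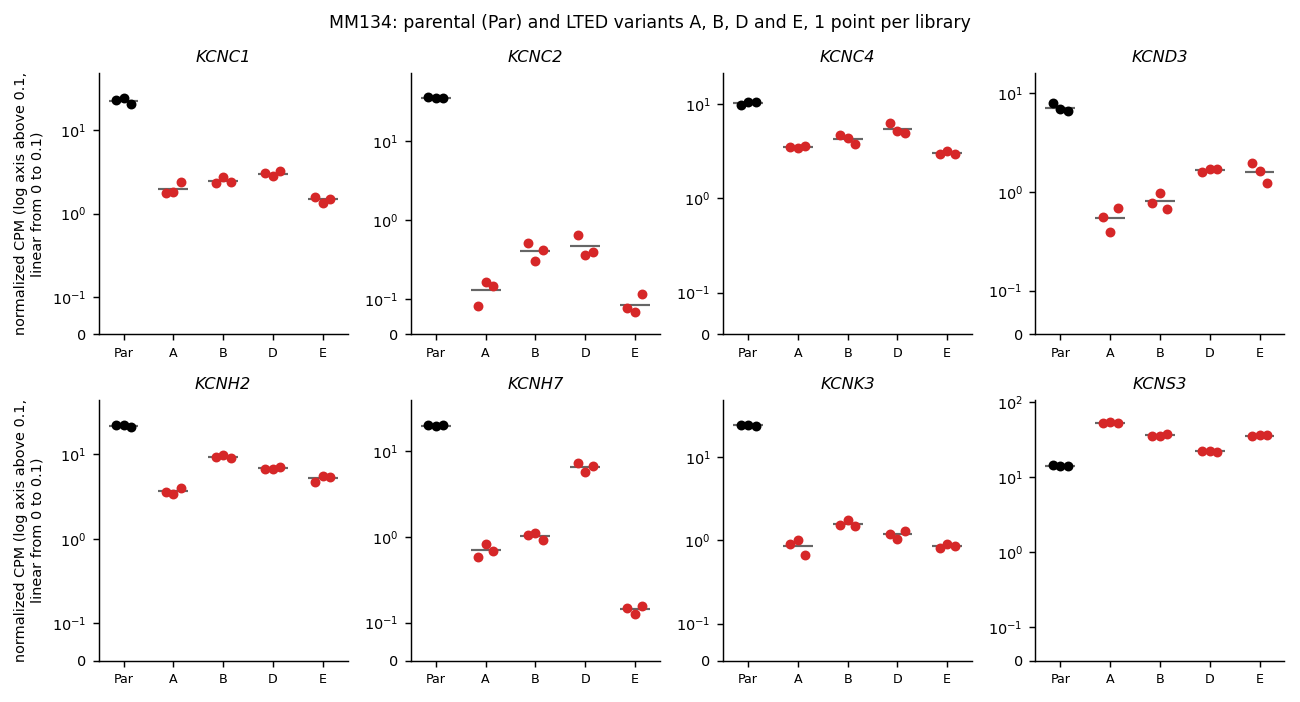
Normalized CPM of 8 members in MM134 (y axis, logarithmic above 0.1 and linear from 0 to 0.1), 1 point per library with the parental libraries in black, LTED libraries in red and a bar at the group mean. KCNC1, KCNC2, KCNC4, KCND3, KCNH2, KCNH7 and KCNK3 are lower in all 12 LTED libraries than in any parental library, and KCNS3 is higher in all 12.

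Of the 6 Kv10 to Kv12 genes tested, 5, 4, 3 and 5 were DE and lower in LTED-A, B, D and E. None was DE and higher. Of all genes, 9.82%, 7.75%, 7.95% and 10.3% were lower in these variants, and 10.5%, 8.11%, 9.63% and 8.71% higher. Nothing is read from these counts, since the family was taken up after the fall of KCNC2. KCNH7 (ERG3) had the widest range: from 20.1, 19.7 and 20.1 CPM in parental cells to 7.26, 5.81 and 6.71 in LTED-D, 1.04, 1.11 and 0.920 in LTED-B, 0.591, 0.835 and 0.688 in LTED-A and 0.148, 0.127 and 0.155 in LTED-E. Between LTED-D and LTED-E the log2 difference was 5.49 (test over the 4 variants, adjusted p = 2.45e-15). KCNH2, the ERG1 channel of cardiac repolarization, was at 22.3, 22.0 and 21.0 CPM in parental cells and fell most in LTED-A, to 3.58, 3.42 and 4.04, and least in LTED-B, to 9.39, 9.75 and 8.95. KCNH3 was 1.96- to 6.17-fold lower, with the lowest libraries in LTED-E (1.90, 2.12 and 2.16 CPM, against 12.0, 12.4 and 14.2 in parental cells). KCNH6 (ERG2) was lower in A, B and E, whereas its LTED-D libraries, at 11.1, 11.0 and 10.3 CPM, lay above the parental ones at 7.37, 8.01 and 7.93 (log2 0.49 ± 0.08, fold below 1.5, not DE). KCNH1 (EAG1, which is expressed in many tumours) was DE and lower in LTED-A (2.80-fold) and LTED-E (1.91-fold).

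Of the Kv7 genes, KCNQ3 was at 5.37, 5.42 and 5.41 CPM in parental cells, near 1.1 CPM in LTED-A and LTED-D, at 0.418, 0.567 and 0.547 in LTED-B, and at 0.0988, 0.0847 and 0.0972 in LTED-E. KCNQ5, at 0.457, 1.13 and 0.874 CPM in parental cells, was at 0 in all libraries of LTED-A and LTED-B and had 3 counts or fewer in those of LTED-D and LTED-E. Measured against 3 counts per library, it was at least 17.4-, 11.5-, 9.83- and 12.6-fold lower in A, B, D and E. KCNQ5 was not DE with DESeq2 in any variant (adjusted p = 0.00639 to 0.091). KCNQ1 was not DE in MM134.

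Among the K2P channels, KCNK3 (TASK-1, an acid-sensitive leak channel, chr2:26692722-26733420, plus strand) was at 24.2, 23.9 and 23.1 CPM in parental cells and at 0.892, 1.00 and 0.669 in LTED-A, 1.51, 1.75 and 1.47 in LTED-B, 1.19, 1.04 and 1.30 in LTED-D and 0.815, 0.910 and 0.855 in LTED-E. The log2 fold changes were -4.79 ± 0.11, -3.91 ± 0.11, -4.31 ± 0.11 and -4.77 ± 0.12 (SE, edgeR adjusted p = 8.86e-16 or lower), a fall of up to 27.6-fold with no overlap. KCNK15 (TASK-5) went from 1.51, 1.38 and 1.78 CPM to at most 0.186 CPM in any LTED library. On 20.1% of its exon bases it lies opposite to RIMS4, which was itself DE and lower, with log2 fold changes of -5.94 to -6.78. How the estimate of counts divided fragments there was not tested. KCNK12 was DE and lower in A, B and D, but the calls in LTED-B (log2 -0.91) and LTED-D (-0.92) were lost without parental replicate 2 or 3, without LTED-B replicate 2 or 3, and without LTED-D replicate 1 or 2 respectively (log2 -0.74 to -0.92). KCNK5 and KCNK6, at 16.2 to 32.8 and 22.4 to 41.1 CPM in MM134, were not DE in any variant but differed between variants, by 0.87 and 0.73 on the log2 scale. KCNK1 was not DE.

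Among the inward rectifiers, KCNJ11 (Kir6.2) fell from 48.8, 52.3 and 52.4 CPM to 29.5, 30.4 and 33.6 in LTED-A and 19.1, 17.5 and 19.4 in LTED-E. In LTED-D it was at 33.5, 33.5 and 33.9 CPM, a 1.507-fold fall that was just past the limit of 1.5 and was not DE with other size factors, without the filter on low counts, with DESeq2 (log2 -0.58 each) or without parental replicate 2 or 3 (-0.58 and -0.57). In LTED-B, with 42.1, 42.3 and 41.7 CPM, it was 1.21-fold lower and not DE. ABCC8, the sulfonylurea receptor that Kir6.2 needs to reach the membrane, was DE and lower in all 4 variants (log2 -3.30, -1.91, -2.55 and -4.93 in A, B, D and E). KCNJ13 fell from 2.60, 2.56 and 2.10 CPM to between 0.650 and 1.27 CPM in the LTED libraries. KCNJ6 (GIRK2) fell in LTED-B, from 17.7, 16.7 and 15.6 CPM to 4.20, 3.68 and 3.50, and 1.60-fold in LTED-D, but not in LTED-E, at 18.2, 19.1 and 17.2. KCNJ12 was DE and higher in LTED-A, at 1.18, 1.09 and 1.04 CPM against 0, 0.162 and 0.0971, and in LTED-E, where the call was lost without parental replicate 1 or 3 or LTED-E replicate 1 or 3. KCNJ12 passed the filter on low counts only through LTED-A and LTED-E, so nothing is read from its calls. It shares nearly its whole sequence with KCNJ18, so its level is uncertain.

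KCNS3 alone was DE and higher in all 4 variants. It rose from 14.7, 14.1 and 14.2 CPM to 53.3, 54.5 and 52.9 in LTED-A, 35.8, 35.5 and 37.5 in LTED-B, 22.6, 22.4 and 21.6 in LTED-D and 35.2, 36.7 and 36.6 in LTED-E, that is 3.73-, 2.54-, 1.56- and 2.54-fold (SE of each log2 value 0.04). The calcium-activated channels were mixed. KCNN2 (SK2) was at 0.0809 to 0.114 CPM in parental cells and at 0.198 to 0.533 CPM in the LTED libraries. It was DE and higher in A, B and D, but its calls in LTED-A and LTED-B were lost with DESeq2 (adjusted p = 0.00333 and 0.00236) and without parental replicate 2 or 3, that in LTED-A also without LTED-A replicate 1. KCNN2 passed the filter on low counts only through A, B and D, so nothing is read from its calls. KCNN1 (SK1) was DE and lower in B, D and E (1.74- to 3.19-fold). KCNN4 (IK) was 2.34-fold higher in LTED-A and 1.79-fold higher in LTED-D, and not DE in the other two. KCNMB4, a BK accessory subunit, was 2.57-fold higher in LTED-B and 2.20-fold higher in LTED-D. KCNMA1 itself, at 134 to 177 CPM in MM134, was not DE, with fold changes of at most 1.27.

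Some members differed between the MM134 variants. The test over the 4 variants called 24 of the 61 members other than KCNC2, against 19.6% of all genes. Nothing is read from this count, since the fall of KCNC2 in the same LTED libraries drew attention to the family. KCNA5 (Kv1.5), a delayed rectifier of the atrium, was at 0.395, 0.487 and 0.525 CPM in LTED-E. Every other MM134 library was at 0.0497 CPM or less. In LTED-E, KCNA5 was at least 5.33-fold higher than in parental cells. As it passed the filter only through LTED-E, it had to differ, and nothing is read from its call. KCNG3, another silent subunit, was highest in LTED-D (2.87, 2.61 and 2.14 CPM, against 1.40, 1.40 and 1.33 in parental cells and 1.07, 1.25 and 0.895 in LTED-B). KCNE4, an accessory subunit, was lowest in LTED-D (2.94, 3.12 and 3.34 CPM) and otherwise between 4.10 and 5.43 CPM. Its call was lost without any 1 of the LTED-D libraries or without LTED-B replicate 1 (log2 difference 0.53 to 0.66). Of the Kv beta genes, KCNAB2 was DE and lower in LTED-B (1.62-fold) and LTED-E (1.502-fold), the latter just past the limit.

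Neuronal marker genes varied over the same groups. SNAP25, SYT1, RBFOX3, ELAVL4, NEFL, NEFM, STMN2 and MAP2 summed in parental MM134 cells to between 77.6 and 79.3 CPM. The sums were 30.7 to 32.4 (A), 66.2 to 74.5 (B), 128 to 131 (D) and 17.9 to 19.5 CPM (E) in the variants. ELAVL4, NEFL and NEFM had 3 counts or fewer in each library of all 5 groups. MAP2 fell from 13.3 to 13.6 CPM in parental cells to 0.0708 to 0.371 CPM in LTED cells. SNAP25 fell from 41.3 to 43.8 CPM to between 2.27 and 7.16 CPM. SYT1, at 20.2 to 21.1 CPM in parental cells, was higher in A, B and D and lower in E. It was highest in LTED-D, at 119.6 to 122.5 CPM. Immune markers summed to 0.514 to 1.33 CPM in parental cells. In LTED-A they summed to 24.1 to 24.6 CPM, nearly all from CD68 and LYZ, with CD3E at 0 there. The immune sums were also above parental cells in LTED-B (8.33 to 9.56 CPM), LTED-D (4.71 to 5.33) and LTED-E (4.425 to 5.73). Endothelial markers summed to at most 5.09 CPM in MM134, and CDH1, whose protein is lost in lobular carcinoma, to 8.36 to 13.2 CPM. Their part in the results on channels was not tested. Without MM134 parental replicate 3 and LTED-D replicate 2, which held the most fibroblast marker RNA, the numbers of members other than KCNC2 that were DE and lower were 18, 17, 14 and 20, and those higher 3, 2, 4 and 3, in LTED-A, B, D and E. KCNN2 and KCNK12 in 2 or 3 variants, and KCNG3 and KCNQ5 in LTED-D, were among the calls lost.

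In SUM44, the inward rectifier genes KCNJ3 and KCNJ13 and the K2P gene KCNK2 were lower in both LTED variants than in SUM44F, and KCND3 and KCNJ11 were higher. Among 63 members tested, 6 were DE and lower in LTED-A (7.29% of all 26835 genes) and 6 in LTED-B (8.57%). There were 3 higher in LTED-A (6.38% of all genes) and 7 in LTED-B (8.71%). In both variants 3 members were DE and lower (4.75% of all genes were) and 2 were DE and higher (3.87%), those just named. Per comparison and direction, the share of members was near that of all genes. The median log2 fold change of the members was -0.30 in LTED-A and -0.27 in LTED-B, beside -0.06 and -0.09 for all genes. LTED-A rests on 2 samples. Of the 63, 7 passed the filter only through SUM44F. KCNK2, the 1 of these that was DE and lower, so had to differ, and nothing is read from its call.

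KCNJ3 (chr2:154697855-154858354, plus strand) was at 94.5, 102 and 103 CPM in SUM44F. It was at 14.3 and 16.1 CPM in LTED-A and at 12.0, 11.8 and 12.2 CPM in LTED-B, with no overlap. The fold was 6.55 and 8.32, with log2 fold changes of -2.71 ± 0.09 and -3.06 ± 0.07 (SE, edgeR adjusted p = 5.91e-09 and 6.72e-10). KCNJ13 (chr2:232765802-232776565, minus strand), the channel that sets the potential of several transporting epithelia, went from 17.1, 18.6 and 16.7 CPM to 1.58 and 0.727 in LTED-A and 1.08, 1.31 and 0.873 in LTED-B. It was 16.1- and 16.3-fold lower (log2 -4.01 ± 0.30 and -4.03 ± 0.25, adjusted p = 2.69e-06 and 6.01e-07). KCNJ13 lies opposite to GIGYF2 on 22.3% of its exon bases, and the log2 fold changes of GIGYF2 were 0.13 and 0.07. KCNK2 (TREK-1, a mechanosensitive leak channel) was at 2.60, 2.63 and 3.50 CPM in SUM44F, 0.0741 and 0.0789 in LTED-A and 0.120, 0.0247 and 0.0655 in LTED-B, 36.9- and 42.5-fold lower. KCNK2 passed the filter only through SUM44F and held 1 to 9 counts in the LTED samples, so the size of these folds is uncertain. The 3 genes are on chromosomes 1 and 2, and the 40 tested genes around each had median log2 fold changes of no more than 0.52 in size.

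KCND3 rose from 8.63, 8.30 and 8.37 CPM in SUM44F to 21.3 and 21.3 in LTED-A and 24.2, 22.4 and 23.3 in LTED-B (2.53- and 2.76-fold, log2 1.34 ± 0.08 and 1.46 ± 0.08). In SUM44PE it was at 21.1, 21.8 and 21.4 CPM, near the level of the LTED variants, so the rise holds against SUM44F only. KCNJ11 rose from 32.1, 33.9 and 26.5 CPM to 53.8 and 52.8 in LTED-A and 56.4, 61.4 and 60.6 in LTED-B (1.73- and 1.93-fold, adjusted p = 0.000108 and 1.19e-05). Without LTED-A replicate 1 the rise of KCNJ11 in that variant missed the threshold (adjusted p = 0.00132). KCNS3 was at 185, 181 and 159 CPM in SUM44F, at 113 and 127 in LTED-A (1.46-fold lower, not DE) and at 111, 114 and 116 in LTED-B (1.54-fold, DE). The call was lost without SUM44F replicate 2 or LTED-B replicate 1 or 2 (adjusted p = 0.00105 to 0.0012). KCNH1, KCNH2, KCNH3, KCNG3 and KCNK1 were DE and higher in LTED-B, of which KCNG3 went from 0.434, 0.234 and 0.478 CPM to 1.63, 1.98 and 1.48. KCNH3 was at the limit, with 1.53-fold and adjusted p = 0.000963, and its call was lost on leaving out any 1 of the 8 samples of the fit. That of KCNH1 was lost without any 1 LTED-B library and that of KCNH2 without LTED-B replicate 3. The Kv3 gene KCNC1 had log2 fold changes of -1.80 ± 0.36 and -1.20 ± 0.31 in the variants A and B, and was not DE (adjusted p = 0.00259 and 0.00863). KCNC4 was DE and lower in LTED-B, at 7.20, 6.92 and 7.13 CPM against 16.4, 19.6 and 18.1.

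**Figure D4:**
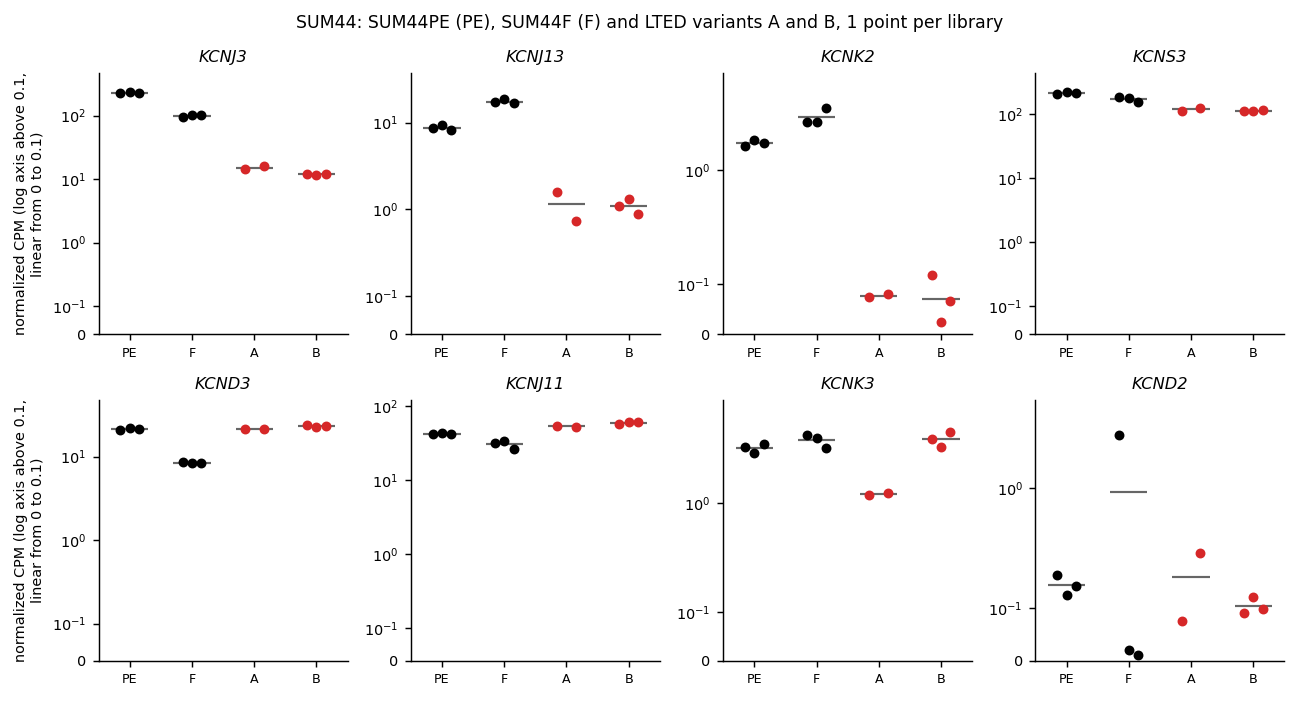
Normalized CPM of 8 members in SUM44 cells (y axis, logarithmic above 0.1 and linear from 0 to 0.1), 1 point per library with SUM44PE and SUM44F in black, LTED libraries in red and a bar at the group mean. KCNJ3, KCNJ13 and KCNK2 are lower and KCND3 and KCNJ11 higher in all LTED libraries than in any SUM44F library, and KCND2 is high in 1 SUM44F library only.

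The SUM44 variants differed from each other in 5 members. KCNK3 was at 4.25, 3.94 and 3.19 CPM in SUM44F, 1.19 and 1.24 in LTED-A and 3.88, 3.29 and 4.49 in LTED-B, and was 3.19-fold higher in LTED-B than in LTED-A (log2 1.67 ± 0.20, adjusted p = 0.000137). KCNQ1 (12.6, 11.3 and 9.74 CPM in SUM44F) was at 6.03 and 4.60 in LTED-A and 12.3, 14.8 and 14.2 in LTED-B. KCNN4 was at 9.11 and 10.1 CPM in LTED-A and 18.4, 19.9 and 19.1 in LTED-B, near the 21.2, 21.6 and 17.9 of SUM44F. KCNE4 was lower in LTED-B (12.4, 10.4 and 11.6 CPM) than in LTED-A (21.7 and 22.1). KCNJ1 (ROMK) was at 0.445 and 0.745 CPM in LTED-A and 0.0602, 0.123 and 0.0437 in LTED-B. It passed the filter on low counts only through LTED-A and so had to differ, and nothing is read from its call. Against LTED-A, 3 of the 5 members were higher and 2 lower in LTED-B, where 3.86% and 3.55% of all genes were. KCNMA1 was DE and 1.59-fold higher in LTED-A, with 1.23-fold and no call in LTED-B, a difference between variants that was not DE. KCNK3 and KCNQ1 were DE and lower in LTED-A than in SUM44F (log2 -1.63 ± 0.20 and -1.08), calls that were lost without either LTED-A sample and, for KCNQ1, without SUM44F replicate 2. Of the 5 differences between the variants, that of KCNK3 was lost without either LTED-A sample (adjusted p = 0.00323 and 0.00179). KCNN4 was lost without LTED-A replicate 1, KCNQ1 and KCNE4 without the mean of LTED-A replicates 2 and 3, and KCNJ1 without any sample but SUM44F replicate 1.

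KCND2 (Kv4.2) was at 2.78 CPM in SUM44F replicate 1, the library with the fibroblast marker RNA, and at 0.0195 and 0.0111 CPM in the other SUM44F libraries. Without that library 6 members were DE and lower in each variant, and 3 and 6 were higher. The neuronal markers summed to 190 to 202 CPM in SUM44F, and to 80.2 to 83.9 (A) and 3.25 to 3.72 CPM (B) in the LTED variants. SYT1 made up 181 to 192, 76.2 to 80.3 and 0.602 to 0.731 CPM of these sums. Endothelial markers summed to 25.8 to 44.8 CPM in SUM44F and to at most 4.52 CPM in LTED cells, with PECAM1 at 21.7 to 27.3 CPM in SUM44F. Immune markers summed to 9.17 CPM in SUM44F replicate 1, to 2.245 and 2.54 CPM in the other SUM44F libraries, and to at most 3.91 CPM in LTED cells. Their part in the results was not tested.

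Between the SUM44 cultures, 7 of 64 members were DE and higher in SUM44PE than in SUM44F (2.85% of all genes) and 3 were lower (2.72%). KCNJ3 was at 225, 232 and 226 CPM in SUM44PE, 2.27-fold above SUM44F (log2 1.18 ± 0.06, adjusted p = 3.81e-08). KCND3 was at 21.1, 21.8 and 21.4 CPM, 2.53-fold above SUM44F. KCNJ1 (1.11, 1.05 and 1.08 CPM), KCNK13 (1.19, 1.01 and 1.51), KCNK15 (2.76, 4.01 and 3.50), KCNK6 (23.5, 23.6 and 24.2) and KCNE4 (28.5, 32.5 and 31.9) were also higher. KCNH2 (1.71, 1.96 and 1.94 CPM, 3.57-fold), KCNH3 (2.12-fold) and KCNN4 (8.51, 8.76 and 8.56 CPM, 2.36-fold) were lower. KCNE4 stood at the limit of 1.5-fold (1.501), and its call was lost without SUM44F replicate 1 or 2 or SUM44PE replicate 2 or 3. That of KCNK13 was lost without SUM44F replicate 2 or 3 or SUM44PE replicate 1 or 3.

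Whether the cell lines responded differently was tested by subtracting the average response over both SUM44 variants from that over the 4 MM134 variants, in log2 units. Of the 69 members tested other than KCNC2, 15 had a DE difference below 0 (10.2% of all 29201 genes) and 9 above 0 (10.8%). Nothing is read from these counts, since they rest in part on the MM134 comparisons in which KCNC2 fell. KCND3, lower in all MM134 variants and higher in both SUM44 variants than in SUM44F, differed by -4.19 ± 0.16 (SE, adjusted p = 8.14e-16). This value rests on SUM44F as the reference, since KCND3 in SUM44PE was near the level of the SUM44 LTED variants. KCNH2 and KCNH3, also lower in all MM134 variants, differed by -2.52 ± 0.10 and -2.28 ± 0.11, and were DE and higher in SUM44 LTED-B. KCNJ11 differed by -1.64 ± 0.08. KCNJ3 differed by 3.12 ± 0.15, since its level in MM134 stayed at 1.27 to 2.33 CPM, and KCNS3 by 1.89 ± 0.06. Of the members lower in at least 3 MM134 variants, only KCNJ13 was also DE and lower in both SUM44 variants, and its fall was larger in SUM44 (difference 2.74 ± 0.26, adjusted p = 8.77e-09).

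**Figure D5:**
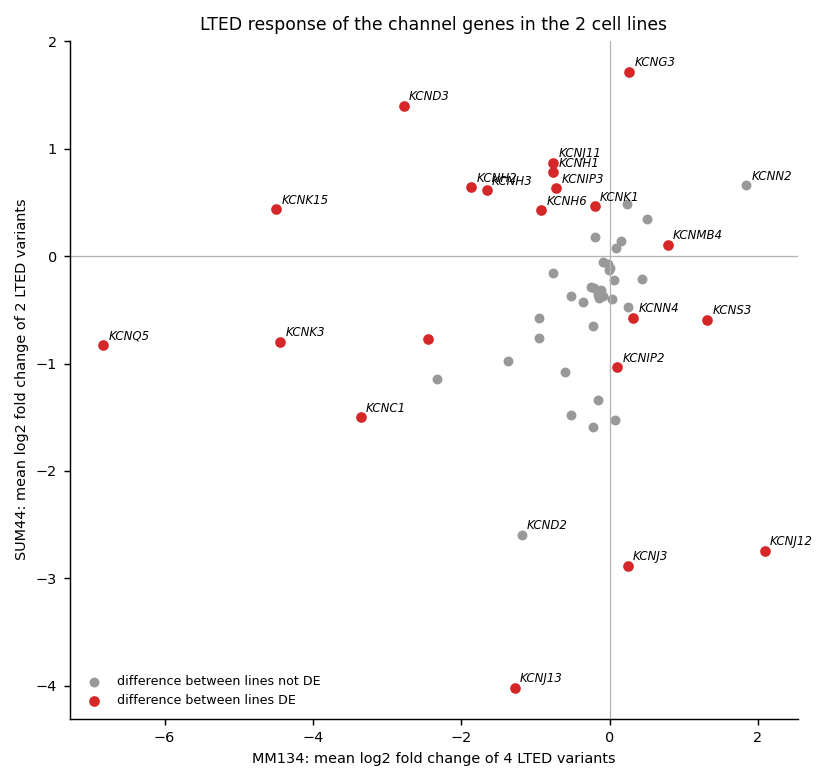
Mean log2 fold change of the 4 LTED variants of MM134 (x axis) against that of the 2 of SUM44 (y axis) for the 55 members tested in both lines, with red points for members whose difference between the lines was DE. KCND3, KCNH2, KCNH3 and KCNJ11 lie to the left of and above 0, KCNS3 and KCNJ3 to the right of and below 0, and 28 members lie below 0 on both axes.

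Genes that act with the channels were described from 4 lists. Of 10 tested partner subunits and relatives (sulfonylurea receptors, BK gamma subunits, DPP proteins and HCN channels), 4, 5, 5 and 4 were DE and lower in MM134 LTED-A, B, D and E, and 1 was higher in each. Of all genes, 9.82%, 7.75%, 7.95% and 10.3% were lower in these variants and 10.5%, 8.11%, 9.63% and 8.71% higher, and in SUM44 LTED-A and LTED-B 7.29% and 8.57% were lower and 6.38% and 8.71% higher. In SUM44, 2 of the 10 were lower in each variant, and 1 and 0 were higher. Of 13 tested pumps and cotransporters, 5, 4, 4 and 5 were lower and 3 higher in each MM134 variant, and of 14 in SUM44, 4 were lower and 1 higher in each. SLC12A2, the sodium-potassium-chloride cotransporter NKCC1, was DE and higher in all 4 MM134 variants, by 2.63 to 4.28 on the log2 scale. ATP1B1, a beta subunit of the pump, was DE and lower in all 6 variants, with log2 fold changes of -4.78 and -4.40 in SUM44.

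The same shares of all genes apply to the sodium and calcium channels. Voltage-gated sodium channel genes were DE and lower in 1, 1, 0 and 0 of 9 tested in MM134 and higher in 1, 0, 2 and 1. In SUM44, 2 of 7 were lower in each variant and 0 and 1 higher. Of 16 voltage-gated calcium channel genes tested in MM134, 6, 8, 6 and 9 were lower and 2, 2, 1 and 2 higher. In SUM44, 4 of 16 were lower in each variant and 1 and 2 higher. CACNA2D2, an auxiliary subunit, was lower in all MM134 variants (log2 -1.23 to -2.24) and higher in both SUM44 variants (2.87 and 2.46), while CACNA2D1 went the other way (1.47 to 3.74 in MM134, -0.98 and -2.28 in SUM44). The median log2 fold change of the 4 lists lay between -1.08 and 0.14 in MM134 and between -0.82 and -0.42 in SUM44. Over all genes it lay between -0.09 and 0.02.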

How the data were processed

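RNA-Seq libraries (stranded total RNA kit) were made from 27 wells in 9 groups of 3, grouped by the labels. The authors deposited 1 table of estimated counts per gene, made with Salmon 0.6.0 on hg38 with Ensembl 82 according to the submitters' processing notes; trimming and the strand setting are not given in the sources used here. All columns matched a sample (0 unmatched). Estimated counts split fragments among transcripts that share sequence, so levels of overlapping or near-identical genes are uncertain.

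Counts were rounded to whole numbers. Gene symbols were from GENCODE 44 (56434 of 60619 identifiers matched). Replicates 2 and 3 of SUM44 LTED-A had a chi-square per degree of freedom of 0.3124, against 2.346 to 58.15 in the 26 other pairs, and were averaged. Depth was 28583554 to 134882175 counts (median 44018412). SDs and SEs cover the spread between wells of a line, and bounds set at 3 counts cover counting error only. Genes were filtered with filterByExpr, normalized with TMM factors and compared in R 4.3.3 by the quasi-likelihood test of edgeR 4.0.16, with Benjamini-Hochberg adjustment over all genes of a fit: MM134 (26061 genes, 62 members), SUM44 (26835, 63), SUM44 with SUM44PE (27457, 64) and all groups (29201, 70), the last for parental lines and the difference in response. Calls used the study's limits, a fold above 1.5 and an adjusted p below 0.001. Displayed CPM shared 1 TMM scaling over 26 samples. A group with at most 3 counts in every library was set to 3 counts for a bound. Steps were tested on simulated data. Tables and plots used Python 3.11.15, pandas 2.3.3, numpy 2.4.6 and matplotlib 3.10.9.

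The members and gene lists were chosen with earlier results of these data known. Named members were KCNC2, those called in the same direction in at least 3 MM134 variants or both SUM44 variants, those called between variants, between lines in response or between SUM44 cultures, and the 5 with the highest CPM per kilobase in each line; others named were chosen after their values were seen. Some members that met this rule and some listed genes are not reported here. Alternatives were DESeq2 1.42.0, other size factors (RLE), no filter, no fold limit, an adjusted p below 0.05, a replicate block, separate near-identical libraries, thinned counts, transcript length, and leaving out each library.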

Additional observations from a re-analysis of the deposited data

Results flagged for a closer look

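The response to long-term estrogen deprivation was taken as the mean log2 fold change over variants. By edgeR's test of the difference, it differed between the cell lines in 24 of the 69 members tested other than KCNC2. Of all 29201 genes, 10.2% had a DE difference below 0 and 10.8% above 0. Nothing is read from the count of members, since it rests in part on the MM134 comparisons in which KCNC2 fell. Among members with a lower value in MM134, the difference (MM134 minus SUM44) was -6.11 for KCNQ5, -4.95 for KCNK15, -4.19 for KCND3, -3.67 for KCNK3 and -3.64 for KCNH7. KCNQ5, KCNK15, KCNH7, and below also KCNJ12 and KCNK2, were near 0 counts in some groups, so that these fitted values depend on the small count the fit adds. Other Kv10 to Kv12 genes differed by -2.52 (KCNH2), -2.28 (KCNH3), -1.55 (KCNH1) and -1.34 (KCNH6). Differences of -1.83, -1.64, -1.44, -1.38 and -0.68 were found for KCNC1, KCNJ11, KCNG3, KCNIP3 and KCNK1. A higher value in MM134 was found for KCNK2 (5.32), KCNJ12 (4.77), KCNJ3 (3.12), KCNJ13 (2.74), KCNS3 (1.89), KCNIP2 (1.16), KCNN4 (0.88) and KCNMB4 (0.68). The call of KCNMB4 was lost without 7 of the libraries left out in turn and that of KCNH7 without 3.

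The SUM44 variants also differed by the same kind of test, on the log2 scale (LTED-B minus LTED-A), by -3.10 in KCNJ1, -0.93 in KCNE4, 0.99 in KCNN4, 1.38 in KCNQ1 and 1.67 in KCNK3, with 2 samples in LTED-A. KCNJ1 passed the filter on low counts only through LTED-A, so nothing is read from its call.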

How the results depend on the processing

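No call of a member was reversed under any alternative that was run. Of 211 calls of members, 1 was lost with other size factors, 2 without the filter, 13 with thinned counts, 2 with the replicate block and 16 without the 3 libraries richest in fibroblast markers (chosen after seeing the data); of 210, 12 were lost with DESeq2. Leaving out a library lost 87 of 3384. Numbers are of members higher or lower, KCNC2 included. With DESeq2, 3 (in place of 5) were higher in MM134 LTED-A, 6 (3) higher and 10 (6) lower in SUM44 LTED-A, and 6 (3) lower in SUM44PE. Without a fold limit 5 (3) were higher in MM134 LTED-B. At an adjusted p below 0.05, 6 (3) were higher in MM134 LTED-B and 6 (3) in LTED-E, 9 higher and 15 lower in SUM44 LTED-A, 11 (7) and 16 (6) in SUM44 LTED-B, 7 (3) and 4 (2) between the SUM44 variants, 11 (7) and 8 (3) in SUM44PE, and 15 (9) above 0 in the difference in response. Without the filter, and likewise with the near-identical libraries kept separate, 7 were higher and 11 lower in SUM44 LTED-A. Without the filter 4 were lower between the SUM44 variants and 5 in SUM44PE. With the replicate block, and with thinned counts, 1 (2) was lower between the SUM44 variants. Without the fibroblast-rich libraries 3 (5) were higher in MM134 LTED-A and 4 (7) in LTED-D. Leaving out each library gave 3 to 5 higher in MM134 LTED-A, 4 to 6 (7) higher in SUM44 LTED-B, and 1 to 4 higher and 1 to 3 lower between the SUM44 variants.

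Libraries with the same number did not deviate together (correlations of -0.2751 to 0.1944 in MM134 and -0.1501 to 0.1774 in SUM44), so the samples share only a number; the block lost the calls of KCNH3 in SUM44 LTED-B (adjusted p = 0.00316) and KCNJ1 between the variants (0.00259). Depth limits what can be said of members under about 0.2 CPM, and 2 samples limit SUM44 LTED-A.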
